A study of Mus musculus with 14 samples.

Results

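Immediate early genes are switched on within minutes of a stimulus, before any new protein is made, and several of them encode the Fos and Jun proteins that pair to form the transcription factor AP-1. The 10 genes described here are Fos, Fosb, Jun, Junb, Jund, Egr1, Nr4a1, Btg2, Atf3 and Ier2, chosen by symbol. The choice was made with earlier results of these data known, so member counts set beside shares of all genes are descriptive. All 10 of them were found in the table of dendritic cell libraries, which lists 24980 genes, and all 10 in the table of macrophage and monocyte libraries, which lists 17118. All 10 also passed the filter on low values in both tables, so no member was lost from any test.

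The authors' table places the members on build mm10 as follows. The Fos genes lie at chr12:85473890-85477274 on the plus strand (Fos) and chr7:19302696-19310045 on the minus strand (Fosb). The Jun genes lie at chr4:95049036-95052222, minus strand (Jun), chr8:84976909-84978748, minus strand (Junb) and chr8:70697739-70700616, plus strand (Jund). Atf3 and Btg2 both lie on the minus strand of chromosome 1, at chr1:191170297-191183333 and chr1:134074865-134079155. Egr1 lies at chr18:34861207-34864956 and Nr4a1 at chr15:101266846-101274794, both on the plus strand, and Ier2 at chr8:84661331-84662852 on the minus strand. The tables give 1 value per gene and library.

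RNA was sequenced in 14 libraries from 3 cell populations, each sorted by flow cytometry from mouse bone marrow. The extraction notes name Cx3cr1 gfp/+ mice, in which 1 copy of the gene of a chemokine receptor is replaced by a green fluorescent reporter, and the design text calls the mice wildtype. Dendritic cells (GFP high, MHC class II high, CD11c high, negative for Gr-1 and B220) came from mice given PAM3CSK4 (4 libraries) or vehicle alone (4 libraries). PAM3CSK4 is a synthetic lipopeptide that activates Toll-like receptors 1 and 2 and was given as a single dose. Macrophages (GFP negative, MHC class II high, CD169 positive, negative for Gr-1 and B220; 3 libraries) and monocytes (GFP high, CD115 positive, B220 negative, Gr-1 low and high together; 3 libraries) were labelled as baseline. The extraction notes give the reporter strain for all groups. The sources used here do not give the dose, the time from dose to collection, the number, sex or age of the mice, or whether each library stands for another mouse. The p-values below therefore measure the spread between libraries, which may be technical in part.

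AP-1 is a dimer of leucine zipper proteins in which Fos proteins, which cannot pair with themselves, bind a Jun protein. Kinase cascades that run from growth factor, cytokine and Toll-like receptors through ERK, JNK and p38 act on factors that already sit at immediate early promoters, and the resulting mRNAs are short-lived. In myeloid cells the same genes also respond to Toll-like receptor ligands and to the handling of tissue.

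Values are in CPM, the unit of reads scaled to the library total and not divided by gene length, so levels are compared between libraries for 1 gene and not between genes. The step between neighbouring values showed that 1 CPM stood for 28.2 to 71.6 reads or fragments in the dendritic cell libraries and for 33.4 to 75.2 in the others. The lowest value of any member, Egr1 in monocyte replicate 2, stood for 27 of them. Log2 changes are differences in mean log2(CPM + 1), given with their SE, and were tested with limma over all genes of a comparison. A gene is said to rise or fall where its p-value, adjusted over all genes tested, is under 0.05.

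The sorted populations were checked against their markers. PAM3CSK4 replicate 4 stood apart from the other 7 dendritic cell libraries, with correlations of 0.826 to 0.894. Its 11 neutrophil markers summed to 11699 CPM, against 615 to 1535 in the other PAM3CSK4 libraries and 573 to 1019 with vehicle, with 1 of the 10 markers tested higher with PAM3CSK4. Its level of Itgax, the gene of the sorting marker CD11c, was 27.5 CPM against at least 170.4 in the other 7. Results for the members in dendritic cells are therefore also given without it. The sums and calls of the other gene lists and of the markers include it. In libraries labelled macrophage the defining gene Siglec1, which encodes the sorting marker CD169, was at 18.9, 18.6 and 25.2 CPM, within the range of 34.7, 2.20 and 14.1 CPM in monocytes. Of all 8 macrophage markers, 3 were higher and 1 lower than in monocytes. They summed to 186 to 285 CPM in libraries labelled macrophage and to 87.1 to 255 CPM in monocytes. The 7 monocyte markers were all lower in macrophages than in monocytes. B cell and plasma cell markers summed to 464 to 7682 CPM in libraries labelled macrophage and to 9.56 to 19.9 CPM in monocytes, and 6 of 6 were higher, as were 7 of 7 erythroid markers and 5 of 6 markers of T cells and NK cells. Blood progenitor markers summed to 589 to 1450.4 CPM in libraries labelled macrophage and to 135 to 394 CPM in monocytes, with 4 of 6 higher. Of 10 neutrophil markers tested 6 were higher and 3 lower, with sums of 1585 to 3943 CPM in libraries labelled macrophage and 2238 to 3269 CPM in monocytes.

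In dendritic cells, the immediate early genes were lower on average with PAM3CSK4 than with vehicle. Btg2, an antiproliferative cofactor of mRNA deadenylation, fell to 78.6 ± 16.2 CPM with PAM3CSK4, against 199.6 ± 29.7 CPM with vehicle (SD, n = 4 each). Ier2, a small nuclear protein of the early growth response, fell to 38.0 ± 18.1 CPM with PAM3CSK4, against 88.0 ± 26.3 CPM with vehicle. Of the 10 members 2 fell and 0 rose, where 2.29% of the 11377 genes tested fell, 2.82% rose and 5.12% changed in either direction. The other 8 members did not pass, with mean levels 0.348 to 0.585 times those with vehicle. In bulk libraries a lower level can come from fewer cells that hold the transcript or from less transcript per cell, and these cannot be told apart.

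All 10 members had a log2 change below 0, as did 32.7% of all genes tested, and their median was -1.03 where that of all genes was 0.20. Median centring of the libraries put all genes at a median of -0.02 and the members at -1.25, and 208 genes then rose and 487 fell, against 321 and 261 on the values as deposited. At an unadjusted p under 0.05, 8 members were lower, against 7.06% of all genes. The groups did not overlap for 1 member, Btg2, against 4.68% of all genes that were lower without overlap. The members were measured in the same libraries, so 10 directions are not 10 independent results.

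**Figure D1:**
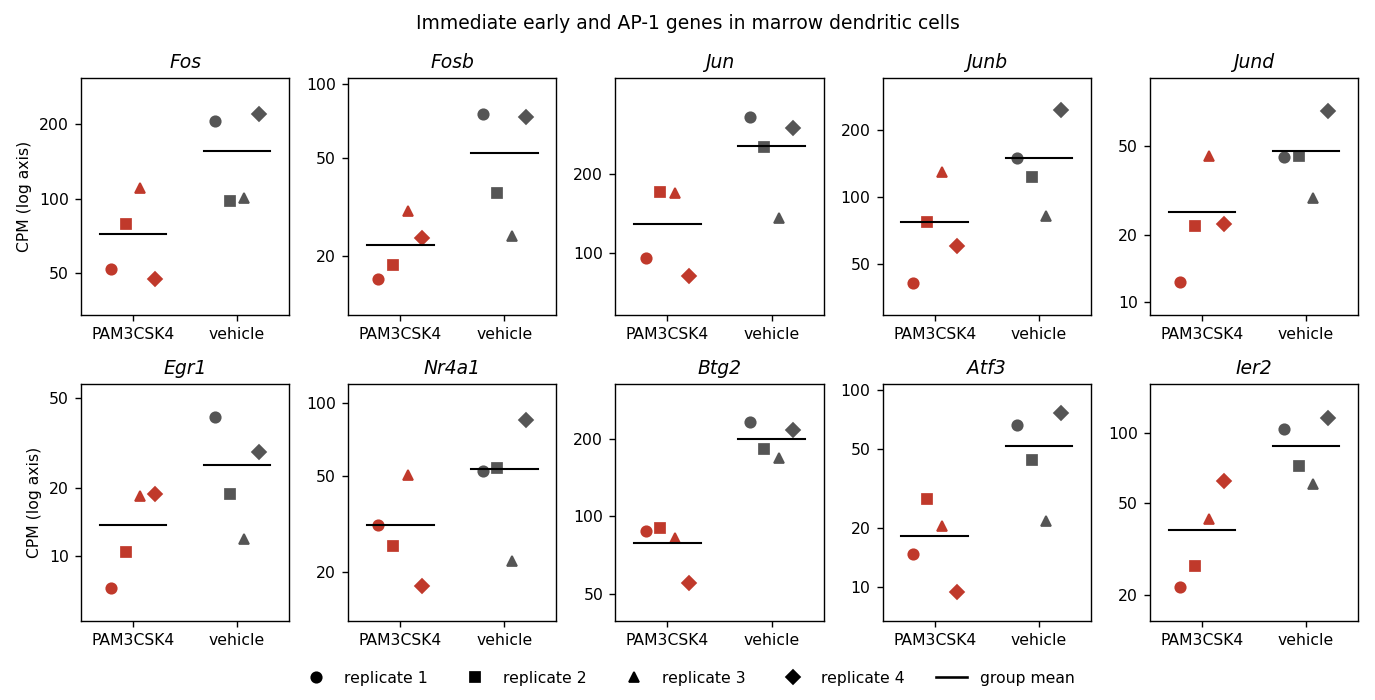
Level of each member (CPM, log axis) in the 4 PAM3CSK4 and 4 vehicle libraries of dendritic cells, with symbols for the replicate and a line for the group mean. PAM3CSK4 and vehicle libraries are apart for Btg2 and overlap for the other 9 members, mainly through vehicle replicate 3.

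Among the Fos proteins, Fos was at 51.8, 78.6, 110.2 and 47.4 CPM in PAM3CSK4 replicates 1 to 4 and at 206, 98.2, 100.3 and 219 CPM in vehicle replicates 1 to 4. Vehicle replicates 1 and 4 lay about level with each other and above every PAM3CSK4 library, whereas vehicle replicates 2 and 3 lay below PAM3CSK4 replicate 3. The log2 change of Fos was -1.08 ± 0.35 (adjusted p = 0.087, limma), which did not pass. Fosb, a close relative, was at 16.2, 18.5, 30.5 and 23.8 CPM with PAM3CSK4 and at 75.1, 36.1, 24.1 and 73.2 CPM with vehicle. It showed the same pair of high vehicle libraries, and its log2 change of -1.08 ± 0.36 did not pass either (adjusted p = 0.096, limma).

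The Jun proteins, the partners of Fos in AP-1, gave a similar picture. Jun was at 96.4, 171, 170.1 and 81.7 CPM with PAM3CSK4 and at 332, 254, 136 and 301 CPM with vehicle. Here only vehicle replicate 3 reached into the PAM3CSK4 range, and the log2 change was -0.97 ± 0.33 (adjusted p = 0.107, limma). Junb, which can oppose Jun on some targets, was at 41.1, 76.7, 130.0 and 59.9 CPM with PAM3CSK4 and at 149.8, 124, 81.7 and 246 CPM with vehicle. Jund, the member of the family usually expressed without a stimulus, was at 12.3, 21.8, 45.0 and 22.3 CPM with PAM3CSK4 and at 44.6, 44.8, 29.1 and 71.4 CPM with vehicle. In both genes PAM3CSK4 replicate 1 was the lowest library and vehicle replicate 4 the highest, with overlap between the groups. Their log2 changes were -0.97 ± 0.38 and -0.95 ± 0.36 (adjusted p = 0.144 and 0.137, limma), so no Fos or Jun gene passed. An annotated antisense gene overlaps Jun over 689 bases and another overlaps Jund over 919 bases. The sources used here do not say whether reads were counted by strand, so reads of these genes and of their antisense partners cannot be told apart.

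Atf3, a leucine zipper protein induced by stress and known to restrain inflammatory genes in macrophages, had the lowest ratio of the 10. It was at 14.8, 27.9, 20.4 and 9.46 CPM with PAM3CSK4 and at 66.4, 44.4, 21.7 and 76.3 CPM with vehicle. Only vehicle replicate 3 lay within the PAM3CSK4 range. The log2 change of Atf3 was -1.43 ± 0.40 and just missed the threshold (adjusted p = 0.0595, limma). It passed in 5 of 17 alternative settings, among them the one without vehicle replicate 3 (log2 change -1.79, adjusted p = 0.034).

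Egr1 and Nr4a1, the 2 transcription factors outside the leucine zipper family, had the smallest log2 changes. Egr1, a zinc finger factor, was at 7.23, 10.4, 18.4 and 18.8 CPM with PAM3CSK4 and at 41.0, 18.8, 11.9 and 28.9 CPM with vehicle. Nr4a1, an orphan nuclear receptor that is induced by antigen receptor and Toll-like receptor signals, was at 31.2, 25.7, 50.4 and 17.5 CPM with PAM3CSK4 and at 52.3, 53.7, 22.1 and 85.4 CPM with vehicle. The groups overlapped in both genes, and the log2 changes of -0.79 ± 0.39 and -0.71 ± 0.40 did not pass (adjusted p = 0.227 and 0.285, limma).

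Btg2 and Ier2, the 2 members that fell, are not leucine zipper proteins. Btg2 was at 87.8, 89.9, 81.9 and 54.9 CPM with PAM3CSK4 and at 232, 182, 168 and 217 CPM with vehicle. Every PAM3CSK4 library lay below every vehicle library, and the log2 change was -1.35 ± 0.23 (adjusted p = 0.0079, limma, rank 89 of 11377 by p). The call held without any 1 of the 8 libraries, and without PAM3CSK4 replicate 4 the log2 change was -1.19 (adjusted p = 0.0049). Ier2 was at 21.5, 26.6, 42.3 and 61.7 CPM with PAM3CSK4 and at 104, 71.7, 60.3 and 116 CPM with vehicle. PAM3CSK4 replicate 4 lay just above vehicle replicate 3, and the log2 change of -1.26 ± 0.33 passed narrowly (adjusted p = 0.0498, limma). The call of Ier2 held in 1 of 8 fits that left out a library, the one without PAM3CSK4 replicate 4 (log2 change -1.52, adjusted p = 0.0062), and adjusted p ranged up to 0.14 in the other 7. It was also lost with a pseudocount of 0.1 (adjusted p = 0.0528) and without an intensity trend (adjusted p = 0.0557). With all 24980 listed genes tested in place of 11377, 32 genes passed in limma and neither Btg2 (adjusted p = 0.0772) nor Ier2 (adjusted p = 0.239) was among them.

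The promoters of Btg2, Fos and Fosb hold different sets of motifs. Each sequence is the 250 bases before the RefSeq start in build GRCm38.p6, read 5′ to 3′ on the gene's own strand, and capitals mark every match to the motifs searched. They are shown as examples with matches, from members of which Btg2 fell in dendritic cells and Fos and Fosb rose in macrophages, as given below. Jun and Jund also rose in macrophages, and their promoters, not shown, held 0 matches to the motifs searched. The promoter of Nr4a1, which passed in neither comparison, held an EGR site.
Btg2, chr1:134079156-134079405, minus strand: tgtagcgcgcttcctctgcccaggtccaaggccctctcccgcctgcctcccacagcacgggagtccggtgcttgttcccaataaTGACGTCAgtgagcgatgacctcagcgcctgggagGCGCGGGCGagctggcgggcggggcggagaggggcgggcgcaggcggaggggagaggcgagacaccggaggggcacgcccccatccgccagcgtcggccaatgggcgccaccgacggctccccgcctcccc
Fos, chr12:85473640-85473889, plus strand: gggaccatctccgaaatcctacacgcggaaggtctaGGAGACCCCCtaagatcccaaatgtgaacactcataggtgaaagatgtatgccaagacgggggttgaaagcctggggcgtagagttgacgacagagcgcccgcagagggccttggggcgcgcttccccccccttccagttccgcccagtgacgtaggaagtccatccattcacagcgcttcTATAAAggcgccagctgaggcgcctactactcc
Fosb, chr7:19310046-19310295, minus strand: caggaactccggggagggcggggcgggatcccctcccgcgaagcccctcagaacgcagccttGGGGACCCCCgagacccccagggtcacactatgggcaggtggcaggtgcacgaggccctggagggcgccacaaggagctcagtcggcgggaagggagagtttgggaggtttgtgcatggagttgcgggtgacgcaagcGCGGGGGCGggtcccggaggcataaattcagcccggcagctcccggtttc

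In Btg2 the capitals are a cyclic AMP response element (CRE, TGACGTCA) at positions -166 to -159 and an EGR site (GCGNGGGCG) at -131 to -123, counted back from the start. In Fos they are an NF-kB site at -214 to -205 and a TATA box (TATAAA) at -33 to -28. In Fosb they are an NF-kB site at -188 to -179 and an EGR site at -50 to -42. Both strands were searched and no match overlapped another. The promoters of 8 members, all but Egr1 and Ier2, were searched. Over those 8, a CRE was found in 1, an EGR site in 3, an NF-kB site in 2, a TATA box in 1, and the AP-1 site (TGANTCA) and the CArG box, the site of serum response factor, in 0. Of 32851 promoters of the same length, a CRE was found in 1.55%, an EGR site in 4.7%, an NF-kB site in 7.25%, a TATA box in 12.4%, an AP-1 site in 6.75% and a CArG box in 1.47%. A match describes the letters only, and elements further upstream lie outside these windows. Sites that depart from the letters searched were not counted, so a count of 0 does not exclude variant sites.

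The vehicle libraries differed widely, and in much the same order for most members. Of the PAM3CSK4 libraries, replicate 3 was among the 2 highest in 9 of 10 members, and replicates 1 and 4 were each the lowest in 5. Vehicle replicate 4 lay above all PAM3CSK4 libraries in 10 of 10 members, vehicle replicate 1 in 9, vehicle replicate 2 in 6 and vehicle replicate 3 in 1, Btg2. Vehicle replicate 3 was the lowest vehicle library in 9 of 10 members, Fos being the exception. Among the treated libraries, PAM3CSK4 replicate 3 lay within the vehicle range in 7 members and PAM3CSK4 replicate 1 in 1. The members summed to 380.4, 547, 699 and 397 CPM in PAM3CSK4 replicates 1 to 4 and to 1304, 928, 655 and 1434 CPM in vehicle replicates 1 to 4. The sums thus overlapped through PAM3CSK4 replicate 3 and vehicle replicate 3. Without vehicle replicate 3 the median log2 change of the members was -1.26, and Btg2 and Atf3 passed, where 130 of the 11562 genes tested fell. Without PAM3CSK4 replicate 4 the median of the members was -0.95, and Btg2 and Ier2 passed, where 322 of the 11499 genes tested fell. The log2 changes of the other 8 members then lay between -1.17 (Atf3) and -0.47 (Nr4a1).

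The summed markers of dendritic cells were also lower with PAM3CSK4. The 9 markers summed to 3765, 3417, 4466 and 602 CPM in PAM3CSK4 replicates 1 to 4 and to 7699, 8316, 7649 and 10156 CPM in vehicle replicates 1 to 4, with no overlap, although only 2 of the 9 passed as lower (Zbtb46 and Cd209a) and 1 as higher (Siglech). Monocyte markers summed to 806, 1170.0, 726 and 875 CPM in PAM3CSK4 replicates 1 to 4 and to 1428, 2125, 2213 and 1619 CPM in vehicle replicates 1 to 4, also with no overlap, and 2 of 7 passed as lower. Vehicle replicate 3, low in members, was not apart from vehicle replicates 1 and 2 in dendritic cell markers. Heat shock genes, which respond to unfolded protein, summed to 2681 to 4740 CPM with PAM3CSK4 and to 2073 to 3337 CPM with vehicle. Of the 13 tested, 0 passed in limma, and log2 changes ran from -1.30 to 1.10. Of these changes 11 were above 0 and 2 below, where 32.7% of all genes tested were below 0. At an unadjusted p under 0.05, 6 were higher and 0 lower, where 2032 of all 11377 genes tested were higher and 803 lower. Of 7 erythroid markers 3 rose and 0 fell. The part of cell makeup in the result was not tested.

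**Figure D2:**
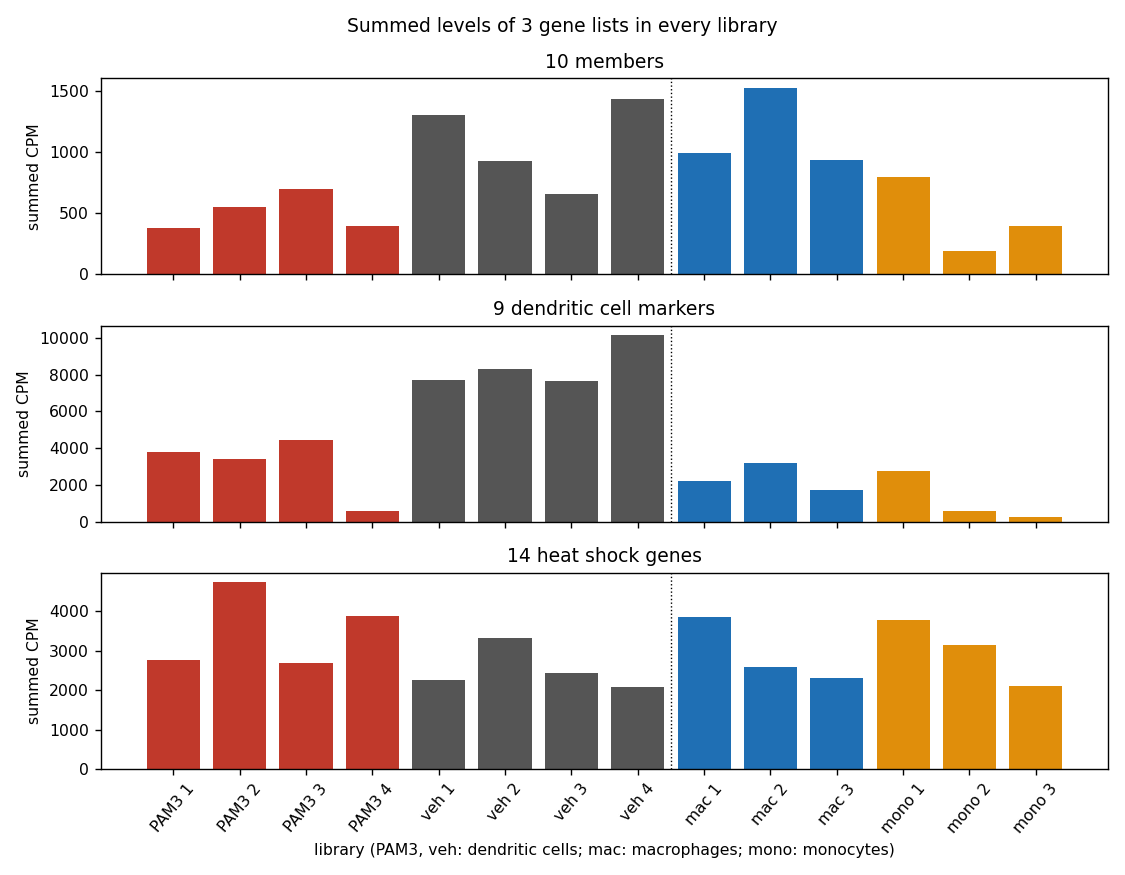
Summed CPM of the 10 members, of 9 dendritic cell markers and of 14 heat shock genes in each of the 14 libraries, with bars from 0 and a dotted line between the tables. Members and dendritic cell markers are both lower in PAM3CSK4 than in most vehicle libraries, and heat shock sums overlap between PAM3CSK4 and vehicle and between macrophages and monocytes.

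Other genes of the same response changed in small numbers. Of 11 tested partners of AP-1 and related leucine zipper genes, 1 rose and 0 fell. The riser was Batf, a zipper protein that binds Jun proteins in place of Fos, at 11.3, 38.1, 30.6 and 16.8 CPM with PAM3CSK4 and at 6.79, 5.49, 6.64 and 8.84 CPM with vehicle. All PAM3CSK4 libraries lay above all vehicle libraries, and the log2 change was 1.54 ± 0.34 (adjusted p = 0.026, limma), so this partner and the Fos and Jun genes had log2 changes of opposite sign. The call of Batf was lost without any 1 vehicle library and without PAM3CSK4 replicate 2 or 3 (adjusted p up to 0.0852). Atf5 and Atf2 had log2 changes of 1.13 ± 0.31 and 0.88 ± 0.26, and Batf3, a factor of cross-presenting dendritic cells, of -1.28 ± 0.37, and these 3 did not pass. Testing all listed genes ended the call of Batf, and those of Egr2, Klf4, Sgk1 and Btg1 given next.

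Of 14 other immediate early transcription regulators, 0 rose and 2 fell, Egr2 and Klf4. Egr2, a relative of Egr1, was at 1.94, 2.15, 1.79 and 1.74 CPM with PAM3CSK4 and at 6.80, 13.3, 5.78 and 5.13 CPM with vehicle, a log2 change of -1.51 ± 0.28 (adjusted p = 0.013, limma). Klf4, a Krüppel-like factor of monocyte development, was at 93.7, 54.3, 93.0 and 63.4 CPM with PAM3CSK4 and at 113, 168, 184 and 188 CPM with vehicle, a log2 change of -1.10 ± 0.25 (adjusted p = 0.031, limma). In both genes all PAM3CSK4 libraries lay below all vehicle libraries. The call of Klf4 was lost without any 1 of vehicle replicates 2, 3 and 4 or PAM3CSK4 replicates 2 and 3 (adjusted p up to 0.090). Klf2 and Ier5 had log2 changes of -0.92 ± 0.27 and -0.90 ± 0.30 and did not pass.

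Feedback and signalling genes of the early response split both ways, with 13 of 27 log2 changes above 0 and 14 below. Sgk1, a kinase of the early response, and Btg1, a paralog of Btg2, fell, with log2 changes of -1.48 ± 0.38 and -0.995 ± 0.255 (adjusted p = 0.045 each, limma), and 0 rose. Both calls were lost in most fits that left out a library (adjusted p up to 0.114 for Sgk1 and 0.115 for Btg1). That of Btg1 was lost without PAM3CSK4 replicate 4 too (log2 change -0.81, adjusted p = 0.0603, limma). Zfp36l2, which promotes decay of AU-rich mRNAs, and Ier3 had log2 changes of -0.99 ± 0.29 and 1.02 ± 0.30 and did not pass. Of 22 kinases and transcription factors that act upstream of immediate early genes, 0 passed in limma, and all 22 log2 changes lay between -0.40 and 0.54. At an unadjusted p under 0.05, 2 were higher and 0 lower, where 2032 of all 11377 genes tested were higher and 803 lower.

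Libraries labelled macrophage, with the markers of other cell types given above, held more Egr1, Fosb, Jund, Jun and Fos transcript at baseline than monocyte libraries. Egr1 was at 72.3 ± 34.6 CPM in macrophages and 3.44 ± 3.04 CPM in monocytes (SD, n = 3 each), and Fosb at 97.1 ± 37.5 CPM in macrophages and 10.98 ± 8.57 CPM in monocytes. Jund, Jun and Fos had means 4.84, 3.08 and 3.15 times those of monocytes. These 5 members rose and 0 fell, where 12.8% of the 12188 genes tested were higher, 7.42% lower and 20.2% changed in either direction. Junb, Btg2, Ier2, Atf3 and Nr4a1 did not pass.

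The groups did not overlap for the same 5 members, against 20.4% of all genes that were higher without overlap. The members' median log2 change was 1.398 where that of all genes was 0.10, and 9 of 10 were above 0 where 57.4% of all genes were. At an unadjusted p under 0.05, 6 members were higher, against 19.1% of all genes.

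**Figure D3:**
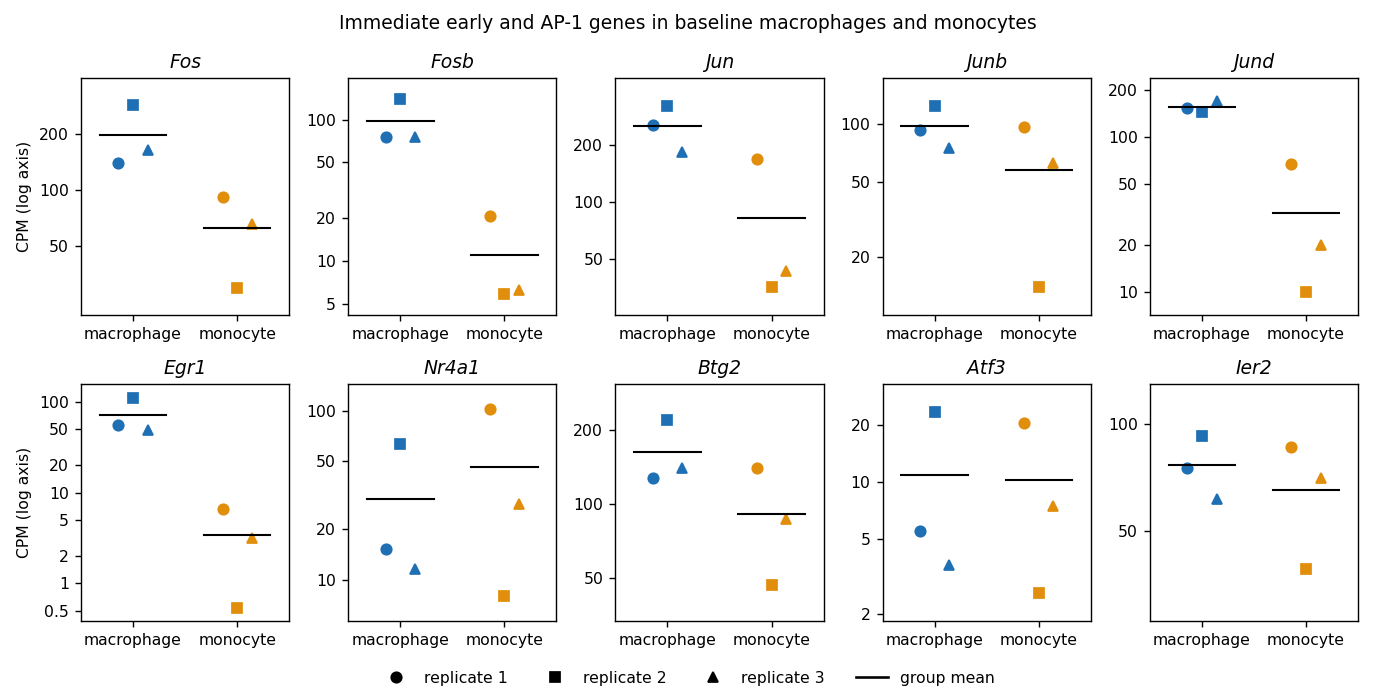
Level of each member (CPM, log axis) in the 3 macrophage and 3 monocyte libraries, with symbols for the replicate and a line for the group mean. Macrophage libraries lie above all monocyte libraries for Fos, Fosb, Jun, Jund and Egr1 and overlap with them for the other 5, and monocyte replicate 1 is the highest monocyte library in every panel.

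Egr1 was at 55.7, 112 and 49.2 CPM in macrophage replicates 1 to 3 and at 6.60, 0.541 and 3.17 CPM in monocyte replicates 1 to 3. The lowest macrophage library stood well above the highest monocyte library, and the log2 change was 4.23 ± 0.51 (adjusted p = 0.00014, limma, rank 231 of 12188 by p). Fosb was at 75.2, 140.3 and 75.7 CPM in macrophages and at 20.9, 5.83 and 6.24 CPM in monocytes, a log2 change of 3.19 ± 0.43 (adjusted p = 0.000275, limma). Jund was at 154, 145 and 171 CPM in macrophages and at 67.1, 9.95 and 20.2 CPM in monocytes. Its log2 change was 2.65 ± 0.50 (adjusted p = 0.0026, limma). The calls of Egr1, Fosb and Jund held in all 15 alternative settings. Values of Fosb in macrophage replicates 2 and 3 were not whole steps. Neither were those of Fosb and Jund in part of the dendritic cell libraries.

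Jun and Fos rose less, and their calls depended on single libraries. Jun was at 253, 320.2 and 184 CPM in macrophages and at 167, 35.5 and 42.9 CPM in monocytes, so macrophage replicate 3 lay only just above monocyte replicate 1. Its log2 change of 1.93 ± 0.48 passed (adjusted p = 0.013, limma), but not without macrophage replicate 1 or 2 (adjusted p = 0.0797 and 0.0856). Fos was at 141, 287 and 165 CPM in macrophages and at 92.3, 29.9 and 66.1 CPM in monocytes, a log2 change of 1.71 ± 0.39 (adjusted p = 0.0085, limma). The call of Fos was lost without macrophage replicate 2, its highest library (log2 change 1.41, adjusted p = 0.062). With all 17118 listed genes tested, neither Fos nor Jun passed (adjusted p = 0.0601 and 0.0849, limma).

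The remaining 5 members did not pass. Junb was at 93.5, 124 and 74.5 CPM in macrophages and at 96.2, 14.02 and 62.8 CPM in monocytes (log2 change 1.09 ± 0.53, adjusted p = 0.194, limma). Btg2 was at 127, 219 and 140.3 CPM in macrophages and at 140.3, 46.6 and 86.7 CPM in monocytes (0.92 ± 0.37, adjusted p = 0.107, limma). In both genes monocyte replicate 1 reached into the macrophage range, and both passed without it, with log2 changes of 1.64 and 1.29 (adjusted p = 0.0088 and 0.0096, limma). Without monocyte replicate 2, the lowest, the log2 changes were 0.29 and 0.51 (adjusted p = 0.479 and 0.246, limma). Ier2 was at 75.3, 92.5 and 61.3 CPM in macrophages and at 86.2, 38.9 and 70.2 CPM in monocytes, a log2 change of 0.28 ± 0.31 (adjusted p = 0.603, limma).

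Atf3 and Nr4a1 varied more within the populations than between them. Atf3 was at 5.50, 23.5 and 3.62 CPM in macrophages and at 20.7, 2.56 and 7.44 CPM in monocytes. Nr4a1, which is needed for the Ly6C-low class of monocytes, was at 15.1, 63.8 and 11.6 CPM in macrophages and at 102, 7.97 and 28.1 CPM in monocytes, a 12.8-fold range among monocytes alone. Macrophage replicate 2 and monocyte replicate 1 were the high libraries in both genes. The log2 changes of 0.06 ± 0.66 and -0.35 ± 0.76 (adjusted p = 0.969 and 0.820, limma) turned sign in several settings: Nr4a1 was at 0.55 without monocyte replicate 1, and Atf3 at -0.063 after median centring and -0.32 after quantile normalization.

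**Figure D4:**
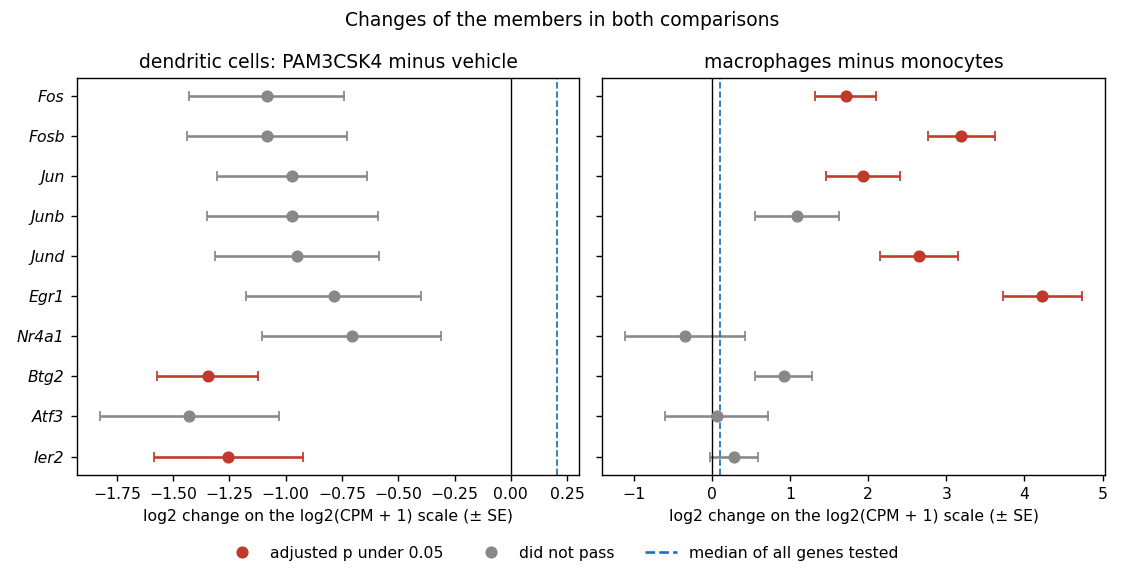
Log2 change of each member on the log2(CPM + 1) scale with bars of 1 SE, PAM3CSK4 minus vehicle in dendritic cells on the left and macrophages minus monocytes on the right, with red for an adjusted p under 0.05 and a dashed line at the median of all genes tested (0.20 and 0.10). All 10 points lie below 0 on the left, where Btg2 and Ier2 pass, and Fos, Fosb, Jun, Jund and Egr1 pass on the right.

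The 3 monocyte libraries kept 1 order across all 10 members. Monocyte replicate 1 was the highest monocyte library in 10 of 10 members and monocyte replicate 2 the lowest in 10 of 10, and macrophage replicate 2 was the highest macrophage library in 9. The members summed to 995, 1528 and 936 CPM in macrophage replicates 1 to 3 and to 799.6, 192 and 394 CPM in monocyte replicates 1 to 3. The same libraries led in dendritic cell markers, which summed to 2222, 3211 and 1719 CPM in macrophages and to 2754, 597 and 248 CPM in monocytes. Heat shock genes summed to 2306 to 3848 CPM in macrophages and 2115 to 3779 CPM in monocytes, and 1 of 13 tested passed, Dnajb4 (log2 change 1.59 ± 0.37). Without monocyte replicate 1, 7 members rose, where 1728 of the 12569 genes tested did. Without macrophage replicate 2, 3 members rose, where 1319 of the 12433 genes tested did. The part of dendritic cells or of the other cell types given above in these results was not tested.

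**Figure D5:**
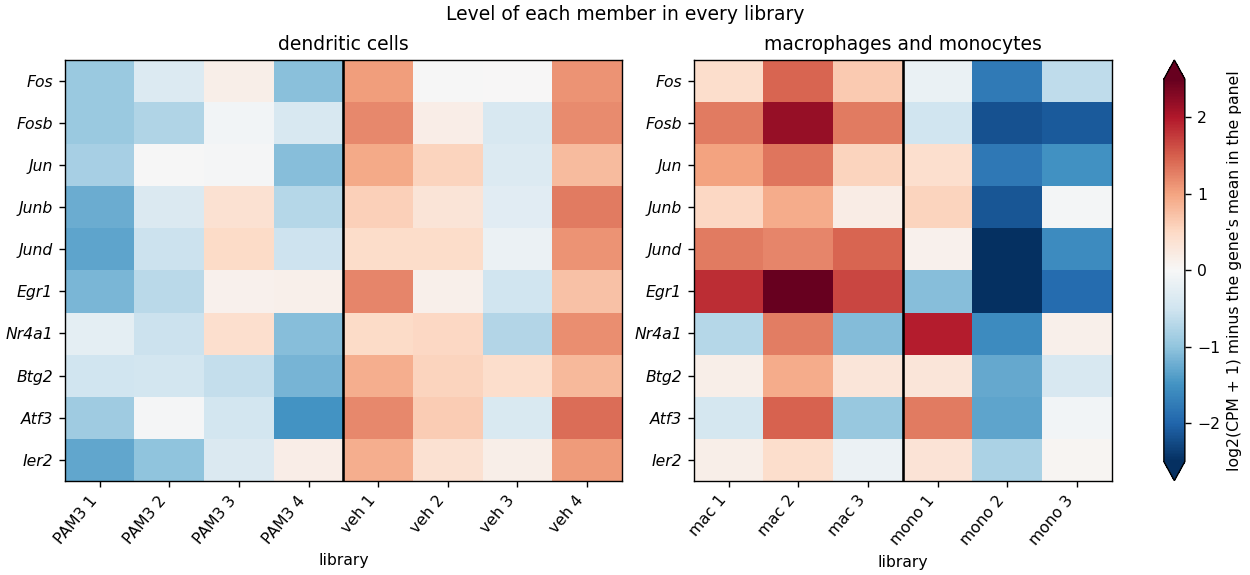
Level of each member in every library as log2(CPM + 1) minus that gene's mean over its panel, dendritic cell libraries (PAM3CSK4, then vehicle) on the left and macrophage and monocyte libraries on the right, with red above the mean and blue below. Vehicle replicates 1 and 4 are red throughout, vehicle replicate 3 is paler, and monocyte replicate 2 is blue throughout.

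Of 27 feedback and signalling genes of the early response tested in macrophages against monocytes, 13 rose and 0 fell, with a median log2 change of 0.92. Rgs1, a brake on chemokine receptor signalling, was at 31.6, 83.4 and 15.4 CPM in macrophages and at 0.831, 1.52 and 0.206 CPM in monocytes (log2 change 4.33 ± 0.51, adjusted p = 0.00012, limma). The MAP kinase phosphatases Dusp2 and Dusp4 rose by log2 changes of 2.37 ± 0.37 and 1.87 ± 0.34, and the mRNA decay factor Zfp36l1 by 2.75 ± 0.51. All macrophage libraries lay above all monocyte libraries in these 4 genes.

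The other regulators went both ways. Of 13 immediate early transcription regulators tested 3 rose and 4 fell, with Egr3 at 6.25, 15.2 and 14.2 CPM in macrophages and at most 0.584 CPM in monocytes (log2 change 3.34 ± 0.37) and Nr4a3 up by a log2 change of 2.24 ± 0.45. Klf4 was at 16.7, 16.4 and 18.9 CPM in macrophages and at 245, 153 and 220.3 CPM in monocytes (log2 change -3.47 ± 0.25, adjusted p = 1.6e-05, limma), and Nfil3 fell by 1.89 ± 0.26 on the log2 scale. Of 11 AP-1 partners, Maff rose by a log2 change of 1.57 ± 0.37, and Fosl2 and Atf7 (log2 change -0.81 ± 0.23) fell. Fosl2, a further Fos protein, was at 31.3, 27.3 and 30.3 CPM in macrophages and at 202, 129 and 224 CPM in monocytes (log2 change -2.57 ± 0.26, adjusted p = 4.7e-05, limma). Of 23 upstream kinases and factors 1 rose and 4 fell, with the repressor Crem up by a log2 change of 1.31 ± 0.32 and the kinases Mapkapk2, Mapk3 and Rps6ka1 lower by log2 changes of -1.41 ± 0.29, -1.26 ± 0.27 and -0.87 ± 0.27. The call of Rps6ka1 was lost in 5 of 6 fits that left out a library (adjusted p = 0.0637 to 0.144, limma), with all listed genes tested, without an intensity trend and after quantile normalization. The call of Atf7 was lost in 4 of 6 such fits (adjusted p = 0.0565 to 0.0977, limma) and after quantile normalization. Quantile normalization also ended the calls of Maff (log2 change 0.87, adjusted p = 0.188), Crem (0.60, adjusted p = 0.207) and the feedback gene Dusp4 (1.13, adjusted p = 0.0509).

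Set side by side, and with no test because the libraries used lie in separate tables, the 4 groups ranked differently from gene to gene. Fosb and Jund were left out of the counts here, because in part of the libraries their values were not whole steps. Both had their highest mean in macrophages, followed by vehicle dendritic cells with no overlap. The lowest macrophage library was at 75.2 CPM for Fosb and 145 CPM for Jund, and the highest vehicle library at 75.1 and 71.4 CPM. Among the other 8 members the mean was highest in vehicle dendritic cells for 6 and in macrophages for 2, Fos and Egr1. It was lowest in monocytes for 5, in PAM3CSK4 dendritic cells for 2 (Btg2 and Ier2) and in macrophages for 1 (Nr4a1). Of the 24 pairs of groups that were neighbours in these orders, the ranges of 21 overlapped. The 3 that did not were macrophages above PAM3CSK4 dendritic cells for Jun, macrophages above vehicle dendritic cells for Egr1, and PAM3CSK4 dendritic cells above monocytes for Egr1.

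The gene most like Fos across the 8 dendritic cell libraries was Zfp36, which encodes tristetraprolin, a factor that speeds the decay of AU-rich mRNAs. Among 7202 genes with a mean of at least 10 CPM its Pearson correlation with Fos in log2(CPM + 1) was 0.983. Zfp36 was at 99.2, 167, 212 and 96.0 CPM with PAM3CSK4 and at 321, 209.9, 184 and 453 CPM with vehicle, high in the same vehicle replicates 1 and 4 as Fos, and its own log2 change of -1.01 ± 0.34 did not pass. Pias3, Kansl3, Lemd2 and Zscan26 came next at 0.947 to 0.924. Of the members, Junb was nearest at 0.922 (rank 6) and Jun followed at 0.917 (rank 9), and Ier2 was farthest at 0.733 (rank 131).

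Across the 6 macrophage and monocyte libraries the most alike of 8025 genes were Arid3b, Map3k12, Snx22, Tmcc2 and Adam8, at 0.996 to 0.983. Egr1 stood at 0.968 (rank 8) and Btg2 at 0.961 (rank 10), whereas Atf3 stood at 0.537 and Nr4a1 at 0.410 (ranks 1222 and 1716). No gene was among the 5 most alike in both sets of libraries. These correlations describe 8 and 6 libraries that share groups, depth and cell makeup, and carry no test.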

How the data were processed

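Total RNA from sorted mouse marrow cells was made into ribosomal RNA-depleted libraries, per the labels' protocols. The submitters' processing notes name the build mm10 and the tools STAR 2.5.3a and Partek, and the sources used here give none of their settings. The 2 deposited tables hold values that the authors named FPKM but that behave as CPM, scaled to library totals. Less 0.0001, which appears to have been added throughout, most low values of a library were whole multiples of 1 step, whatever the length of the gene. Of values up to 50 steps, between 66.0% and 68.6% (dendritic cells) or between 87.6% and 90.5% (macrophages and monocytes) were whole within 0.05, against at most 12.6% with a step 7% longer. Of all values, 55.6% to 56.5% and 80.6% to 83.8% came out whole, too few for a count test. The listed CPM of a library summed to between 350368 and 578711.

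Groups and replicate numbers came from the sample titles. Another 3 columns match no single sample by name and were not used, so dendritic cells were not tested against the other populations. No 2 libraries held identical values. Each comparison was fitted within its own table on log2(CPM + 1), which understates changes of low genes, by limma 3.58.1 under R 4.3.3 (lmFit, eBayes with trend). Tests were two-sided, and p-values were adjusted by Benjamini-Hochberg across every gene in the fit, with calls under 0.05. Genes entered a fit with 1 CPM or more in at least 4 dendritic cell libraries or 3 of the others. The procedure was tested on simulated data. The members and gene lists were chosen with earlier results of these data known. From each list up to 4 genes are named in order of unadjusted p, with the 5 genes most correlated with Fos. The alternatives were a pseudocount of 0.1, no filter, a filter at 5 CPM, median centring, a common total, quantile normalization, a replicate block, no intensity trend, library weights and each library left out. Promoter sequences are from RefSeq, build GRCm38.p6. Tables were handled in Python 3.11.15 and drawn with matplotlib 3.10.9.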

Additional observations from a re-analysis of the deposited data

How the results depend on the processing

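The sign of all 10 members in dendritic cells held in the 17 alternatives, with medians of -0.73 to -1.26. Genes called among all tested (main count 582) were 32 with no filter, 976 with the replicate block and 1649 with library weights, and 184 to 1008 with a library left out. The split of higher and lower calls (321 and 261 as deposited) was 276 and 390 with a common total, and 237 and 438 after quantile normalization. The members called (2) were 3 with median centring, quantile normalization or library weights, where Atf3 joined Btg2 and Ier2. They were 1 with a pseudocount of 0.1, 0 with no filter, 1 without an intensity trend, and 1 to 2 with a library left out. With no filter all 24980 genes were tested, and Btg2 had adjusted p = 0.077 in limma.

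In macrophages against monocytes the genes called (2468) were 5471 with library weights and 1699 to 3364 with a library left out. The split was 1564 higher and 904 lower as deposited, 1370 and 1303 after median centring, 2068 and 768 with a common total, which put the median of all genes at 0.26 and of the members at 1.57, and 1004 and 1238 after quantile normalization. The members called (5) were 6 with library weights, where Btg2 joined. They were 3 with no filter, where Fos and Jun were lost (adjusted p = 0.0601 and 0.0849 in limma), and 3 to 7 with a library left out. Where 1 library was left out, the other libraries set the spread.

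Some log2 changes that did not pass turned sign. With a library left out, Nr4a1 ranged from -1.22 to 0.55, Atf3 from -0.66 to 0.72, Ier2 from -0.046 to 0.52 and the nuclear RNA Neat1 from -0.601 to 0.00077 in macrophages against monocytes. Nr4a1 was above 0 without monocyte replicate 1 (0.55) or macrophage replicate 3 (0.11). Atf3 was below 0 without monocyte replicate 2 (-0.58) or macrophage replicate 2 (-0.66), after median centring (-0.063), after quantile normalization (-0.323) and with library weights (-0.322). Neat1 was 0.052 after quantile normalization, and Malat1 was -0.052 in dendritic cells after median centring. The cause was not tested.

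Deviations from the group means correlated between same-numbered libraries at r of -0.12 to 0.30 in dendritic cells and 0.08 to 0.18 in the others. Between differently numbered libraries r was -0.38 to 0.20 in dendritic cells and -0.12 to 0.02 in the others. These values do not settle whether the numbers mark pairs, and the main fit took none. The replicate block called 976 genes in dendritic cells, against 582 without it. With the replicate block Sgk1 no longer passed (adjusted p = 0.053 in limma). Newly past the threshold were Atf5 (0.034), Zfp36l2 (0.047) and Hspd1 (0.045) in dendritic cells, where 2 heat shock genes then passed, and Bag3 (0.042) and Dnaja1 (0.039) in macrophages against monocytes. The members called stayed at 2 and 5, and the block gave 2609 genes in macrophages against monocytes.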
